A study of Mus musculus with 6 samples.

Results

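The RNA ends of whole lung and whole spleen were compared directly, window by window and base by base. The unit of comparison was a strand-specific window of 2 kb of the mouse genome build mm9. A window entered when it held at least 10 uniquely listed tags in the lung library and at least 10 in the spleen library. Of 57403 windows with a tag in either library, 541 met this rule. The survey covered 6 organs of adult mice of BALB-c background with 1 library each, so lung and spleen have no replicate and no test between them was made. Each library was made by PARE (parallel analysis of RNA ends): polyadenylated RNA was selected, an adaptor was ligated to 5′-monophosphate ends, and the enzyme MmeI released a short tag that begins at the RNA's 5′ end. Both samples are whole organs with no cell sorting. The labels do not say how many animals gave RNA, and they state a starting amount of total RNA for lung but not for spleen.

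A finished messenger RNA carries a cap at its 5′ end and is not ligated by this method. A 5′ monophosphate appears after decapping, after internal cleavage, or as the 5′ to 3′ exonuclease stops along the transcript, so a tag marks a decay or processing intermediate rather than the intact RNA. Because the ligated RNA is selected by its poly(A) tail, each tag comes from a fragment that still reaches the transcript's 3′ end. The hexamer AATAAA, read in RNA as the poly(A) signal, lies a short way before the site where the tail is added. Lung is an exchange surface of epithelium and capillaries with resident macrophages. Spleen is a blood filter and lymphoid organ, in which B and T lymphocytes lie beside macrophages that break down old red cells.

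The same genes were tagged at different places in the 2 libraries. The tags below are the strongest 5′ ends of 5 genes in each library, shown because they carry this difference; capitals mark AATAAA. Each is given 5′ to 3′ as the most frequent deposited tag at that base. Tmsb4x encodes thymosin beta-4, an actin-binding peptide; Ltb encodes lymphotoxin beta, a cytokine of lymphocytes; H2-K1 and H2-Ab1 encode antigen-presenting molecules; Alb encodes serum albumin.
Tmsb4x, strongest in lung: atctgatggtctggctagca
Tmsb4x, strongest in spleen: AATAAAgttttaaaacctga
Ltb, strongest in lung: agtcccgagcggccgggggc
Ltb, strongest in spleen: tgaaAATAAAgaatgtaaac
H2-K1, strongest in lung: tatcatcttgacctagggct
H2-K1, strongest in spleen: tgaagaAATAAAtgatagat
H2-Ab1, strongest in lung: tcagagtctagcatggtact
H2-Ab1, strongest in spleen: AATAAAcgagactcagactct
Alb, strongest in lung: tttgacttcttgtctctgtgc
Alb, strongest in spleen: AATAAAaaatggaaagaatct
All 5 spleen tags hold the signal and none of the 5 lung tags does, but the genes were picked as examples and give no rate. Of 371 windows with different strongest ends, the signal was in the spleen end alone in 147 and the lung end alone in 9. Both ends held it in 63 and neither in 152. The Tmsb4x ends lie on the minus strand of chromosome X, at 163645247 in lung and at 163645044 in spleen, 203 nt further toward the 3′ end. The lung end held 111 of 1727 lung tags and 0 of 318 spleen tags. The spleen end held 119 spleen tags and 65 lung tags. The Ltb ends lie on the plus strand of chromosome 17, at 35333166 with 14 lung and 2 spleen tags and at 35333227 with 3 lung and 139 spleen tags. The H2-K1 ends lie on the minus strand of chromosome 17, at 34133095 with 16 lung and 0 spleen tags and 91 nt downstream, at 34133004, with 12 lung and 84 spleen tags. H2-Ab1, on the plus strand of the same chromosome, had 57 lung and 0 spleen tags at 34406149 and 10 lung and 15 spleen tags at 34406334. Alb, on the plus strand of chromosome 5, had 114 lung and 37 spleen tags at 90905579, and 18 lung and 103 spleen tags 28 nt downstream at 90905607.

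**Figure D1:**
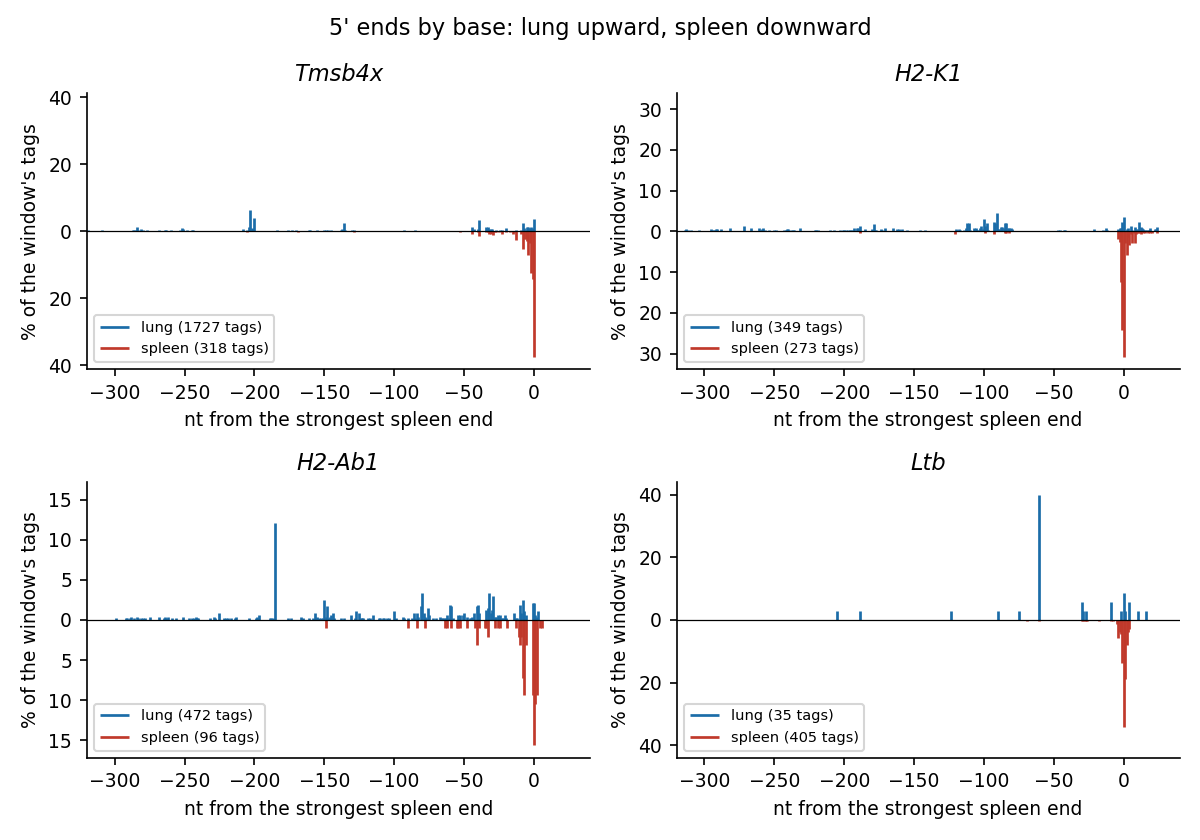
Share of each window's tags at every 5′ end (y axis, percent, lung upward and spleen downward) against the distance in nt from the strongest spleen end (x axis) for Tmsb4x, H2-K1, H2-Ab1 and Ltb. Spleen tags pile up at the zero point, where the strongest end holds between 15.6% (H2-Ab1) and 37.4% (Tmsb4x) of them, while lung tags extend further upstream.

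A smaller set of genes had the same strongest end in both libraries, and the following 4 tags show it.
Hbb-bs: ttgaaaatctgtcttctgac
Pfn1: ttctgAATAAAaaaagattc
2410006H16Rik: tgcaatgatgatgaaactag
Rpl13: gtggaatgatgacattctcc
Hbb-bs is a beta-globin gene, and its end on the minus strand of chromosome 7 at 110975092 had 277 lung and 79 spleen tags. Pfn1 encodes the actin-binding protein profilin-1, and its end on the minus strand of chromosome 11 at 70465377 had 5 lung and 73 spleen tags. The end in the noncoding gene 2410006H16Rik (chromosome 11, plus strand, 62416576) had 1058 lung and 393 spleen tags, 63.5% and 80.5% of the window. The end in the window of the ribosomal protein gene Rpl13 (chromosome 8, plus strand, 125626932) had 955 and 102 tags, 78.0% and 82.3% of the window. Naming passes over small RNA genes that lie within a longer gene. Whether the 2410006H16Rik and Rpl13 ends belong to the named gene's own RNA or to a small RNA within its span was not tested. Hbb-bs tags were spread over 131 ends in lung and 92 in spleen. The windows of 2410006H16Rik and Rpl13, by contrast, had most of their tags at 1 base in both organs. Pfn1 had 26 ends in lung and 6 in spleen, where 45.1% of its tags lay at the shared end.

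Depth set much of what could be shared. The lung library held 493121 unique tags and the spleen library 42939, an 11.5-fold difference. Levels are given in CPM, the tags of a window divided by the library's unique tags and multiplied by 1000000. A minimum of 10 tags is 20.3 CPM in lung and 233 CPM in spleen, so a window could enter at a much lower level in lung than in spleen. The minimum was met by 7945 windows in lung and 645 in spleen. The 541 shared windows were 83.9% of the spleen windows (exact 95% interval 80.8 to 86.6) and 6.81% of the lung windows. They held 137839 lung tags, 28.0% of that library, and 18651 spleen tags, 43.4% of that library. At the edge of the rule, 72 windows had 9 spleen tags and enough lung tags while 74 had 10 spleen tags, and 5 windows had 9 lung tags and enough spleen tags while 9 had 10. All intervals describe counting error alone: amplified reads are not independent molecules, and the spread between animals was not measured.

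Genes of each organ's own cells were high in its library, and genes of other tissues were also tagged. Scgb1a1, the secretory protein of airway club cells, had 72516 CPM in lung and 326 in spleen over all its windows. Ager, of alveolar type 1 cells, had 2162 and 23.3 CPM, and surfactant protein gene Sftpb 3456 and 46.6. The B cell list summed to 677 CPM in lung and 13158 in spleen, and the T and NK cell list to 677 and 11807. Ltb is on both lists, so these sums are not independent. Its 405 spleen tags were counted among the 565 of the B cell list and the 507 of the T and NK cell list. Genes of the pancreatic acinar cell, which makes digestive enzymes, summed to 52.7 CPM in lung and 11132 in spleen. Tags were named in 17 of the 25 listed acinar genes, 9 of these in lung and 16 in spleen. Cardiac muscle genes had 198 tags in lung and 0 in spleen, where a count of 0 allows 69.9 CPM, and Lyz2 and Krt7 were also at 0 in spleen. No acinar or cardiac gene had a shared window, and the part of these tissues in the levels below was not tested.

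Most shared windows had the higher level in spleen. Of the 541, 359 (66.4%) were called higher in spleen and 25 (4.62%) higher in lung, a call needing a ratio of CPM of at least 2 and an exact interval clear of 1. The remaining 157 were called in neither direction, and the median log2 ratio of lung over spleen was -1.67. The unequal minimum weighs on this split. Among the 155 windows with at least 233 CPM in both libraries, 46 were higher in spleen and 25 higher in lung, and the median log2 ratio was -0.33. Scaling by the trimmed mean of M values moved every log2 ratio by 1.07 toward lung and gave 207 windows higher in spleen and 66 higher in lung. Ratios below are read beside these medians. In whole organs fewer cells of a type and less RNA per cell cannot be told apart.

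**Figure D2:**
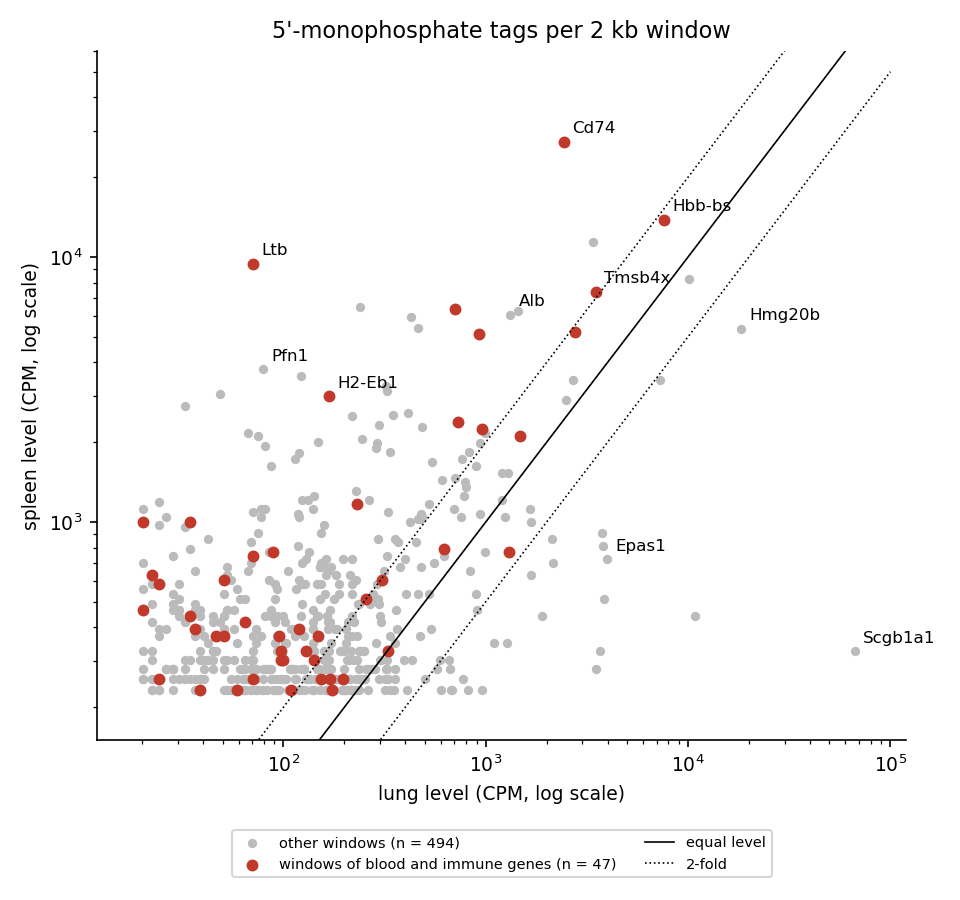
Level of each of the 541 shared windows in lung (x axis, CPM, log scale) and spleen (y axis, CPM, log scale), with 47 windows of blood and immune genes in red, the line of equal level and the 2-fold lines. Cd74 and Ltb lie far above the lines, Scgb1a1 far to the right, and the lower edge is the minimum of 10 tags at 233 CPM in spleen.

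Of 250 listed genes found in RefSeq, 47 had a shared window, and 35 of these 47 were higher in spleen, 12 in neither direction and 0 in lung. Their median log2 ratio of -1.85 was close to the -1.67 of all windows, and their share called was near the background share of 66.4%. Under that other scaling, 21 were higher in spleen and 2 higher in lung. The list as a whole therefore stood little apart from the other windows, while single members differed widely.

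MHC class II molecules display peptides from outside the cell to helper T cells, and 5 of 11 listed genes had a shared window. All 5 were higher in spleen, against 66.4% of all windows. Under trimmed-mean scaling Cd74 and H2-Eb1 were still called, and H2-Aa, H2-Ab1 and Ctss were not (log2 ratios -0.64, -0.16 and -0.26). Cd74, the invariant chain that guides these molecules to the endosome, had 1202 tags in lung (2438 CPM) and 1168 in spleen (27201 CPM) in its window on the plus strand of chromosome 18 (60972001 to 60974000). The ratio of lung over spleen was 0.0896 (0.0826 to 0.0972), and the spleen level was the highest of any shared window in that library. The window was picked for naming by its spleen level, the highest on that strand of chromosome 18. A high spleen level was thus part of how it was chosen. H2-Eb1, a beta chain, had 83 lung and 128 spleen tags, or 168 and 2981 CPM, a ratio of 0.0565 (0.0423 to 0.0750). The alpha chain gene H2-Aa had 359 and 102 tags (ratio 0.306, 0.245 to 0.386). H2-Ab1 had 472 and 96 tags (ratio 0.428, 0.343 to 0.539). The intervals of H2-Aa and H2-Ab1, whose products pair, overlapped. Ctss, a protease that trims the invariant chain, had 64 and 14 tags and a ratio of 0.398 (0.221 to 0.769). Over all windows of each gene, H2-Ab1 had a ratio of 0.543 (0.438 to 0.680) and Ctss 0.572 (0.324 to 1.09), neither a 2-fold call. Cd74 is also a known product of alveolar type 2 cells of the lung.

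MHC class I molecules display peptides from inside the cell on nearly all cell types, and 3 of the 10 listed genes found in RefSeq had a shared window. The heavy chain gene H2-K1 was higher in spleen, with 349 lung and 273 spleen tags and a ratio of 0.111 (0.0947 to 0.131). Most of its spleen tags and a minority of its lung tags held AATAAA (counts below), and the call rests on those tags. H2-D1, the other heavy chain, had 152 and 26 tags (ratio 0.509, 0.334 to 0.804). B2m, their shared light chain, had 1368 and 224 tags (ratio 0.532, 0.461 to 0.615). H2-D1 and B2m missed the 2-fold call, although both intervals lay below 1. The H2 genes differ between mouse strains, and tags with a strain difference may be placed elsewhere or not at all.

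The lymphocyte genes with a shared window had low ratios. The unequal minimum favours this, since a gene could enter at a much lower level in lung than in spleen. Listed genes without a shared window are not covered. Ltb had 35 tags in lung (71.0 CPM) and 405 in spleen (9432 CPM). Its ratio of 0.00753 (0.00517 to 0.0106) was the lowest of the 541. Cd79b, the signalling chain of the B cell receptor, had 114 and 50 tags (ratio 0.199, 0.141 to 0.283). Ms4a1, which encodes the B cell surface protein CD20, had 17 and 19 tags, and Pou2af1, a B cell transcriptional coactivator, 10 and 20. Jchain, which joins secreted antibody units, had 17 lung and 43 spleen tags (ratio 0.0344, 0.0184 to 0.0616). Of 23 listed B cell genes, 4 had a shared window. All 4 were higher in spleen, against 66.4% of all windows, with a median log2 ratio of -4.10 against -1.67.

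Of 11 windows of genes of leukocytes in general, 9 were higher in spleen, against 66.4% of all windows. Ptprc, which encodes the surface phosphatase CD45, had 44 lung and 33 spleen tags (ratio 0.116, 0.0723 to 0.188). Tmsb4x had 1727 and 318 tags, or 3502 and 7406 CPM (ratio 0.473, 0.419 to 0.535), and lost the call under trimmed-mean scaling (log2 -0.014). Klf2, a transcription factor of quiescent T cells and endothelium, and Lcp1, an actin-bundling protein, were called in neither direction. The ratios in the list ran from 0.0418 to 0.749.

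Macrophage genes had ratios from 0.0203 to 1.69. Of 15 windows, 10 were higher in spleen and 5 in neither direction, a share at the 66.4% of all windows. Slc40a1, the iron exporter ferroportin, had 10 lung tags and 43 spleen tags (ratio 0.0203, 0.00907 to 0.0409), and none of its 17 spleen ends recurred in lung. Vcam1, an adhesion molecule of splenic macrophages and activated endothelium, had 35 and 32 tags (ratio 0.0952, 0.0573 to 0.159). The complement gene C1qc had 11 and 27 tags (ratio 0.0355, 0.0159 to 0.0739). Toward the other end of the range, Fth1, the ferritin heavy chain, had 640 and 33 tags, or 1298 and 769 CPM. Its ratio of 1.69 (1.19 to 2.47) was the highest among the blood and immune windows and fell short of the 2-fold call. Apoe, a lipid carrier, had 731 and 91 tags (ratio 0.699, 0.562 to 0.880), and the lysosomal protease gene Ctsd 308 and 34 (ratio 0.789, 0.552 to 1.16). Over all its windows Ctsd had 571 and 36 tags, and the ratio turned to 1.38 (0.986 to 1.99).

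Neutrophil and platelet genes had 2 shared windows each. Over all windows the neutrophil list summed to 2910 CPM in lung and 1327 in spleen, a ratio of 2.19 (1.68 to 2.91). Most of the lung sum came from Hp, with 992 of 1435 lung tags and 5 of 57 spleen tags. Hp is also on the club and ciliated cell list, so the sum gives no direction for neutrophil genes as a set. S100a8 and S100a9 encode the 2 chains of calprotectin. S100a8 had 162 and 14 tags, or 329 and 326 CPM (ratio 1.01, 0.583 to 1.88), whereas S100a9 had 47 and 16 tags (ratio 0.256, 0.142 to 0.483). Ppbp, a platelet chemokine, had 76 and 11 tags and an interval that reached 1 (0.318 to 1.26). Plek, a platelet signalling protein, had 35 and 11 tags (ratio 0.277, 0.138 to 0.605).

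Red cell genes were tagged in both organs. Hbb-bs had 3745 lung tags (7594 CPM) and 594 spleen tags (13834 CPM), a ratio of 0.549 (0.503 to 0.600). Its log2 ratio was -0.87 and turned to 0.20 under trimmed-mean scaling. Hbb-bt, the neighbouring beta-globin gene, had 456 and 220 tags (ratio 0.180, 0.153 to 0.213). These are names of the reference strain, whose globin cluster is not that of BALB-c mice, and reads can be divided between the near-identical copies. Alas2, the first enzyme of heme synthesis in red cell precursors, had 59 and 17 tags (ratio 0.302, 0.174 to 0.553). Prdx2, an antioxidant enzyme of red cells, had 48 and 14 (ratio 0.299, 0.162 to 0.586). The microRNA gene Mir451a, of red cell precursors, had 25 and 23 tags (ratio 0.0946, 0.0516 to 0.175), with 19 and 16 of them at the same base.

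Windows higher in lung included 2 kinds. The first were messenger RNAs of lung cells, with tags on many bases. Scgb1a1 had 32937 tags on 322 ends in lung and 14 tags on 14 ends in spleen, a ratio of 205 (122 to 375). Epas1, a hypoxia-responsive transcription factor of endothelium, had 1951 and 31 tags (ratio 5.48, 3.85 to 8.09). Scd1, a fatty acid desaturase, had 1861 and 39 (ratio 4.16, 3.03 to 5.86). All 14 Scgb1a1 ends and all 11 Epas1 ends of spleen were also lung ends. The second kind held nearly all tags at 1 base. The window of Mtch1 had 1731 and 12 tags, 98.6% and 100% of them at one end (ratio 12.6, 7.17 to 24.4). The window of Hmg20b had 8984 and 230 tags (ratio 3.40, 2.98 to 3.89), 99.8% and 100% of them at one end. Whether such a stack belongs to the gene's messenger RNA or to another RNA within its span was not tested. On chromosome 1, minus strand, an unnamed window (24618001 to 24620000) had 5342 and 19 tags (ratio 24.5, 15.7 to 40.7), and the window of Lncppara, at the let-7b precursor, had 1800 and 14 (ratio 11.2, 6.66 to 20.5).

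Below Ltb, the windows furthest toward spleen included genes outside the immune lists. Pfn1 had 39 and 162 tags (ratio 0.0210, 0.0144 to 0.0299). An unnamed window on the plus strand of chromosome 13 (101540001 to 101542000) had 16 and 118 tags (ratio 0.0118, 0.00654 to 0.0200). Gm5905 had 24 and 131 tags and Rpl35a-ps4 had 10 and 48. Both are pseudogenes, whose tags can come from their parent genes. With tags listed at 2 locations kept, the log2 ratio of Gm5905 moved from -5.97 to -3.11. Ribosomal protein and translation genes had 24 windows, 17 of them higher in spleen and 0 in lung, near the 66.4% and 4.62% of all windows. Their median log2 ratio was -1.24 against -1.67 over all windows. Hepatocyte genes had 7 windows of 6 genes with 2 higher in spleen, against the same 66.4%. The main Alb window had 651 and 260 tags (ratio 0.218, 0.189 to 0.253).

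Exact 5′ ends recurred often where the spleen library was deep enough. The shared windows held 25564 distinct ends, of which 23286 were found in lung, 5665 in spleen and 3387 in both. The ends in common were 59.8% of the spleen ends (58.5 to 61.1), 14.5% of the lung ends (14.1 to 15.0) and 13.2% of the union. They carried 79.0% of the spleen tags and 53.8% of the lung tags. Of spleen ends with 1 tag, 50.2% were also lung ends, and of the 116 spleen ends with 20 or more tags, 111 (95.7%, 90.2 to 98.6). A lung library thinned to the spleen's number of tags would be expected to hold 25.7% of the spleen ends and 51.3% of the spleen tags. In the blood and immune windows, 609 of 952 spleen ends (64.0%) were also lung ends. The shares differed by gene: 48 of 49 Cd74 ends and all 33 Tmsb4x ends of spleen recurred in lung, but 5 of 25 Ptprc ends and 6 of 30 Jchain ends did. Ptprc and Jchain were also far less tagged in lung, at 44 and 17 tags, than Cd74 and Tmsb4x.

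**Figure D3:**
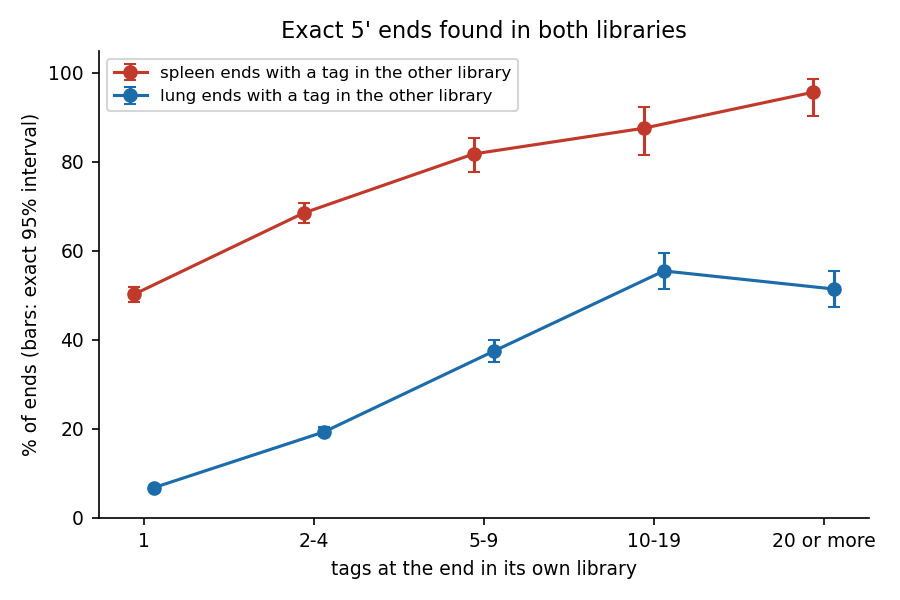
Percent of distinct 5′ ends in the shared windows that also held a tag in the other library (y axis, exact 95% intervals) by the number of tags at that end in its own library (x axis). Spleen ends run from 50.2% to 95.7%, and lung ends from 6.80% to at most 55.5%.

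The strongest ends in common were stacks of tags at single bases. By the lower CPM of the pair, the end in Hmg20b came first, with 18188 CPM in lung and 5356 in spleen. An unnamed window on the plus strand of chromosome 17 (39978001 to 39980000) held the next pair, at 39979944 with 6479 and 4751 CPM and at 39979943 with 2930 and 3167 CPM. The end in 2410006H16Rik had 2146 and 9153 CPM, that in Rpl13 had 1937 and 2375, and that in Eif4a2 had 1249 and 1514. Eif4a2 encodes an RNA helicase of translation initiation. In its window 96.6% of the lung tags and 98.5% of the spleen tags lay at that end. Whether these stacks belong to the named gene's own RNA or to another RNA within its span was not tested. The strongest end in the window of Mir142, a microRNA gene of blood cells, had 262 lung and 27 spleen tags (ratio 0.845, 0.568 to 1.31).

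The strongest end of a window was the same base in 170 of 541 windows (31.4%, 27.5 to 35.5) and within 1 nt in 236. Where ends tied for strongest, the nearest pair was used, so any coinciding tied pair counted as the same. Such ties occurred in 118 windows in spleen and 112 in lung. Of the 341 windows without any tie, 116 agreed. The same strongest end was more frequent where lung tags were concentrated. Where the strongest lung end held under 10% of the lung tags, 44 of 229 windows agreed (19.2%). Where it held at least 50%, 45 of 53 agreed (84.9%, 72.4 to 93.3). Among the 207 windows with at least 5 tags at the strongest end of each library, 106 agreed (51.2%, 44.2 to 58.2). In the blood and immune windows 8 of 47 agreed, Hbb-bs, Fth1, Ctsd and Pou2af1 among them. Of the 24 windows of ribosomal protein and translation genes 13 agreed. Spleen tags were more concentrated: the strongest end held a median of 27.3% of a window's tags in spleen and 11.2% in lung, a measure that a low tag number raises.

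Where the strongest ends differed, the spleen end usually lay closer to the 3′ end. Of 371 such windows, the spleen end lay downstream in 275 and upstream in 96, with a median displacement of 17 nt toward the 3′ end. With at least 5 tags at both strongest ends the numbers were 75 downstream and 26 upstream, with a median of 23 nt. Over all tags of a window, the mean position was further downstream in spleen in 469 of 541 windows, by a median of 67.3 nt and a middle range of 21.4 to 114 nt. This held in 46 of the 47 blood and immune windows, with a median of 83.9 nt. The exception was B2m, whose mean position differed by -1.68 nt and whose strongest spleen end lay 171 nt upstream of the lung end. Its spleen tags were spread over 87 ends, with 14 of 224 at the strongest. In the 53 windows with at least 50% of the lung tags at one base the median displacement was 0.0789 nt, against 72.9 nt in the others.

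Tags that hold the poly(A) signal made up a larger share in spleen. AATAAA was searched on the tag's own strand in the whole tag, which has 20 or 21 nt in 99.6% of lung and 99.4% of spleen tags. In the shared windows it was found in 13.4% of lung tags (18469) and 47.3% of spleen tags (8818; 46.6 to 48.0). Over each whole library the shares were 8.80% and 38.1%, and outside the shared windows 7.02% and 31.0%. The variant ATTAAA, in tags without AATAAA, was found in 1.16% of lung and 3.54% of spleen tags of the shared windows. Window by window, the AATAAA share was higher in spleen in 365 and higher in lung in 48. In 230 windows most spleen tags held it, and in 31 windows most lung tags did. The signal began a median of 3 bases into these tags in spleen and 5 bases in lung.

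Spleen stood apart from every other library in this measure. AATAAA was held by 38.1% of unique spleen tags, against 9.70% for liver, 8.80% for lung, 4.40% for brain, 3.89% for ovary and 2.28% for kidney. The next highest library, liver, thus lay below spleen by far more than counting error (9.50 to 9.91 against 37.6 to 38.6). With 1 library per organ, organ and library cannot be told apart.

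**Figure D4:**
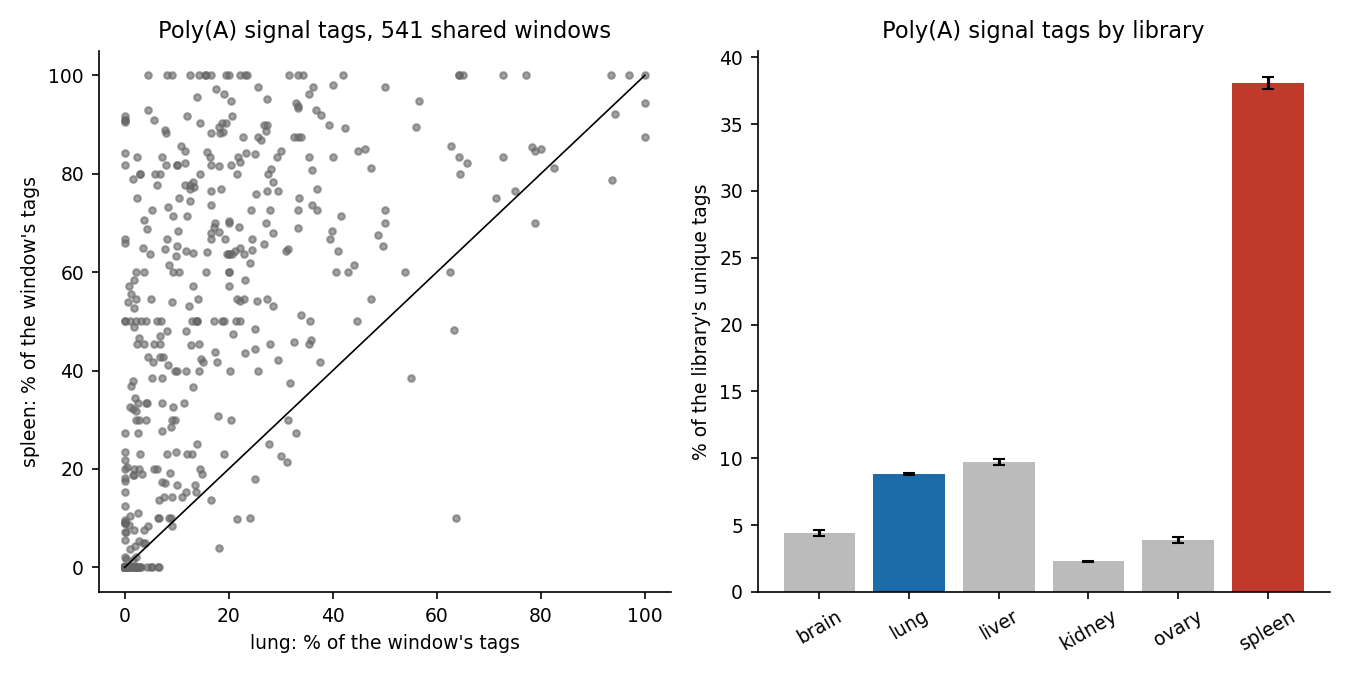
Left, percent of a window's tags that hold the poly(A) signal hexamer in lung (x axis) and spleen (y axis) for the 541 shared windows; right, the same share of all unique tags in the 6 libraries (y axis, percent, exact 95% intervals). Most windows lie above the diagonal, and the spleen bar reaches 38.1% against at most 9.70% elsewhere.

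In the 47 blood and immune windows signal tags made up 10.6% of lung tags and 62.8% of spleen tags, and the share was higher in spleen in 39. In the 5 MHC class II windows the shares were 17.9% and 79.0%. Cd74 had the signal in 315 of 1202 lung tags and 1014 of 1168 spleen tags. Ltb had it in 9 of 35 and 395 of 405, and H2-K1 in 71 of 349 and 259 of 273. Pfn1, outside these lists, had it in 13 of 39 lung tags and in all 162 spleen tags. The globin window was less one-sided, with 122 of 3745 lung and 113 of 594 spleen tags for Hbb-bs. Vcam1 and Jchain were among the windows with no such tag in either library, and their mean positions also lay downstream in spleen, by 56.1 and 45.2 nt. Where strongest ends differed, only the spleen end held the signal in 147 windows, only the lung end in 9, both in 63 and neither in 152.

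The level ratios of several genes moved without these tags. With every AATAAA tag left out of windows and totals, an alternative chosen after seeing the data, 280 windows remained, 192 higher in spleen and 16 higher in lung, and the median log2 ratio was -1.71. This median is over fewer windows, and the smaller spleen total moves every ratio toward spleen, so it is not comparable with that of all 541. Tmsb4x turned from a log2 ratio of -1.08 to 1.49 (0.98 to 2.06), that is, from higher in spleen to higher in lung. With totals left as they were, its ratio over tags without the signal was 4.15 (2.91 to 6.13). Ltb moved from -7.05 to -2.70 and Cd74 from -3.48 to -1.55, both still higher in spleen by these reduced totals. With totals left as they were, the Ltb ratio over tags without the signal was 0.226 (0.106 to 0.526). The same ratio for Cd74 was 0.502 (0.422 to 0.599), which missed the 2-fold call. H2-Eb1 moved from -4.15 to -3.25. Hbb-bs moved from -0.87 to -1.17 through the change of totals alone: with totals left as they were, its ratio went from 0.549 to 0.656 (0.596 to 0.723), toward lung. Of the 27 blood and immune windows that still met the minimum, 18 were higher in spleen and 1 higher in lung, which was Tmsb4x. H2-K1, with few spleen tags left, was not among the 18.

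Ends that differed did not always hold the signal. The strongest spleen end of Wdr89, which encodes a WD-repeat protein, lay on the minus strand of chromosome 12 at 76731928 with 97 spleen tags and 0 lung tags; its tag ends in a run of A.
Wdr89, strongest in spleen: ttatgtatcttgaaaaaaaa
The window had 60 lung and 152 spleen tags (ratio 0.0344, 0.0251 to 0.0466), and its strongest lung end lay 10 nt upstream with 11 lung and 5 spleen tags. Rpp25l, by contrast, did hold it in spleen: the gene had 715 of 1326 lung tags at an end without a spleen tag. Its strongest spleen end lay 377 nt downstream, with 145 of 147 spleen tags at 1 base that also held 540 lung tags. Tags ending in 6 or more A made up 2.59% of lung and 2.18% of spleen tags in the shared windows, and 0.835% and 5.95% over the whole libraries.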

How the data were processed

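Tags were aligned with Bowtie to mm9, per the submitters' processing notes; the sources used here give no version or settings. The deposited tables list each tag sequence with its read count, which was used as the measurement. The score the authors deposited is a browser display density and was not used as a level. Tag sequences listed at 2 locations in a library were dropped (9.99% of lung and 15.5% of spleen lines). The 5′ end was the first base on the plus strand and the last on the minus strand. Levels are CPM of unique tags. Ratios have exact conditional binomial and shares exact Clopper-Pearson 95% intervals. Calls and intervals were tested on simulated data. Python 3 with pandas, numpy and scipy was used.

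No mm9 annotation was used. The first 20 bases of tags were matched to RefSeq promoter and microRNA sequences (GRCm38.p6) on the same chromosome and strand, which tied mm9 positions to RefSeq genes for names only. A window was named when the offset of the matched point on each side put at least 50% of its tags in the same gene's span. These offsets were not required to agree. A point was dropped only when its neighbours agreed within 500 nt with each other and not with it. Where a small RNA gene and a longer gene both held the tags, the longer gene gave the name. No RefSeq coordinate is printed. Of 3680 matched points, 1307 were left out in turn to check them, and 1305 of these agreed. Most points were thus not checked in this way, and the accuracy of the window names was not measured. The naming rule gave a name to 431 windows, Cd74 was named separately, and 109 stayed unnamed. For Cd74, the shared plus-strand window of chromosome 18 with the highest spleen level was taken first. The extent of the tags around it, with gaps under 4000 nt, was then compared with the RefSeq gene (8733 nt against 8804). For 87 windows the table gives no strand, so antisense RNA cannot be told apart there.

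Named windows were the 30 blood and immune windows with the highest lower CPM, the 8 furthest in each direction, the 8 with the highest lower CPM, the 8 strongest shared ends, the 6 differing windows with most spleen tags at their end, and Cd74 and Ltb. Other members are named as examples of their list. Windows, lists and rules were chosen with earlier results of these data known, and the poly(A) signal measures after the strongest ends had been seen. Alternatives tried were the tag minimum, window size, scaling, distinct ends, totals without the 10 largest windows, tolerance of 1 nt and multiply listed tags.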

Additional observations from a re-analysis of the deposited data

How the results depend on the processing

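No paired analysis was possible because each organ has 1 library and all share 1 replicate number. In the order shared windows, higher in lung, higher in spleen, median log2 ratio, percent of spleen ends in lung, percent of spleen tags at such ends and percent of windows with the same strongest end, the values were 541, 25, 359, -1.67, 59.8, 79.0 and 31.4. A minimum of 5 tags gave 1417, 73, 722, -1.38, 51.3 and 70.7 for the first 6. A minimum of 20 gave 181, 9, 131, -1.88, 71.7, 87.7 and 40.3. The equal CPM minimum gave 155, 25, 46, -0.33, 79.2, 93.1 and 46.5. Windows of 1 kb gave 61.7% of ends and 80.5% of tags. The trimmed mean of M values gave 66 higher in lung, 207 higher in spleen and a median of -0.61. Counting distinct ends gave 3 higher in lung. Within 1 nt, the last 3 values were 77.4, 88.9 and 43.6. With at least 2 tags at the end in each library 57.8% of ends were shared, and with at least 5 at both strongest ends 51.2% of windows agreed. Chosen after seeing the data, leaving out AATAAA tags gave 280, 16, 192, 66.2, 82.8 and 35.7 (the median was -1.71), and thinned lung gave 25.7% of ends and 51.3% of tags. Windows of 5 kb, multiply listed tags kept and totals without the 10 largest windows left all these values within counting error, or counts within 1.5 times.

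Spleen tags lay further downstream in 86.7% of windows, and in 80.0% to 88.9% under the alternatives run. Of 248 recomputed ratios of 53 named windows, 144 stayed within the reported interval and 97 moved outside it. The other 7 were ratios of called windows that changed sign. These were Tmsb4x without AATAAA tags (log2 1.49) and Fcer1g with the trimmed mean (0.063), and with distinct ends Lncppara (-0.16), Hmg20b (-0.086) and the windows on chromosome 1 from 24618001 (-3.41), on chromosome 18 from 38320001 (-2.41) and on chromosome 19 from 31160001 (-1.53), which hold nearly all tags at few bases. Spleen depth limits all comparisons, since 1 spleen tag is 23.3 CPM.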
